A study of Mus musculus musculus x Mus musculus castaneus with 12 samples.

Results

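*Zscan4c*, *Zscan4d*, *Zscan4f*, *Tcstv1*, *Tcstv3* and *Zfp352* are genes of the 2-cell-like state, and their transcripts were followed by RNA-seq across 12 libraries of F1 hybrid mouse embryonic stem (ES) cells with and without the histone demethylase gene *Kdm6a*. The genes were taken by symbol, and all 6 had a row among the 24346 genes counted in every library. The study deleted *Kdm6a* in male ES cells of reciprocal crosses and compared the clones with unedited cells of the same cross, and it compared unedited male and female cells. BC cells had a BL6 mother and a *cast* father, and CB cells came from the reverse cross. In BC, 2 male wt libraries were set beside the male *Kdm6a* KO clones ΔE1, ΔE3 and ΔP4 and beside 2 female wt libraries. In CB, 2 male wt libraries were set beside the male *Kdm6a* KO clones ΔP2.1, ΔE2.5 and ΔE2.7. ΔE stands for an exonic deletion and ΔP for a deletion at the promoter, and each clone gave 1 library. ΔE1 and ΔE3 trace back to the same editing event and also lack *Sh3kbp1*, *Map3k15* and *Pdha1* through an off-target deletion. The unedited CB line carries an actin-GFP transgene. All cells grew in serum and leukemia inhibitory factor on inactivated mouse embryonic fibroblasts, and were enriched for ES cells on gelatin before RNA was collected. Nothing in the labels says whether wt libraries of a group came from separate derivations, so p-values measure the spread between these libraries.

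Cultures of mouse ES cells hold a small, changing fraction of cells that resemble the embryo at the 2-cell stage, when transcription of the zygotic genome begins. Such cells transcribe genes and endogenous retroviruses that are silent in their neighbours, and they return to the usual state within a few divisions. The factor Dux switches on much of this program, with Dppa2 and Dppa4 acting before it, while repressors such as Trim28, Setdb1, the chromatin assembly factor Chaf1a and the Polycomb complex subunits Pcgf6 and L3mbtl2 hold it back. *Zscan4* genes encode proteins with a SCAN domain and zinc fingers that are known for telomere lengthening and genome stability. *Tcstv1* and *Tcstv3* encode short proteins of the same cells, also tied to telomere length, and *Zfp352* encodes a zinc finger protein of the early embryo. In bulk RNA, fewer cells in this state and less RNA per such cell cannot be told apart.

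The *Zscan4* genes are near-identical neighbours, which sets what a 75-base read can tell. On GRCm38, *Zscan4c* lies on the plus strand of chr7:11005745-11010547, *Zscan4d* on the minus strand of chr7:11161374-11166159 and *Zscan4f* on the plus strand of chr7:11397915-11402318. Their coding sequences have 1521 bases each, of which only 38 positions differ between any of the 3 genes. *Zscan4c* and *Zscan4f* share 99.6% of coding bases, and *Zscan4d* shares 97.7% with either. The coding stretch of 1 read length in which they differ most, coding bases 1046 to 1120, is shown because it is the best case for telling them apart. Capitals mark the 8 bases that differ, read 5′ to 3′ along the transcript.
Zscan4c, chr7:11009521-11009595 (plus strand): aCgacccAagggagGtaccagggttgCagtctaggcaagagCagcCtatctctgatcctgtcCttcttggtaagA
Zscan4d, chr7:11162322-11162396 (minus strand): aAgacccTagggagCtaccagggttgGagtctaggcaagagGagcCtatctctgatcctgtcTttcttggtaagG
Zscan4f, chr7:11401714-11401788 (plus strand): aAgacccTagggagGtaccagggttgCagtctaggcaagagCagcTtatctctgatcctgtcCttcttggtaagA
Elsewhere the coding sequences run identical for up to 233 bases, so a read inside that stretch fits all 3 genes. *Tcstv1* on the minus strand of chr13:119893388-119894785 and *Tcstv3* on the plus strand of chr13:120316878-120318178 share 93.6% of aligned coding columns, and their most different stretch, coding bases 383 to 457 of *Tcstv1*, is shown with its 10 differing bases in capitals.
Tcstv1, chr13:119893638-119893712 (minus strand): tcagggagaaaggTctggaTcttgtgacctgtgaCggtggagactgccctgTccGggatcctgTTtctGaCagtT
Tcstv3, chr13:120317949-120318023 (plus strand): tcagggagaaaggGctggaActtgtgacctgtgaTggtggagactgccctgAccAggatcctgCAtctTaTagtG
*Zfp352* stands alone on the plus strand of chr4:90218820-90225702.

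Unique mapping therefore sees these genes to unequal degrees. Of the 75-base windows along each GENCODE transcript, counted as exact matches on both strands against all other annotated transcripts, 7.58% were unique to *Zscan4f*, 21.4% to *Zscan4c* and 60.5% to *Zscan4d*. The share was 87.9% for *Tcstv1*, 85.7% for *Tcstv3* and 97.1% for *Zfp352*. *Zscan4c* shared 60.4% of its windows with *Zscan4f*, and *Zscan4f* shared 79.5% of its own with the pseudogene *Zscan4-ps2*. The authors kept uniquely mapped reads, so the counts of the *Zscan4* genes cover only part of their transcripts and are given here both by gene and as a family.

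All 6 genes were scarce in every library. The values come from the deposited column named for fragments on either parental genome, scaled by its library total to CPM (a depth-corrected fragment count). In each library this column was at or below the counts on both genomes for 99.6–99.8% of genes. It therefore does not hold the union of fragments on the BL6 and *cast* genomes. Counting error is given as a 95% Poisson interval. Totals ran from 68457338 to 89070402 fragments in the BC libraries and from 49975599 to 53407103 in the CB libraries, so a count of 0 still allows a level of up to 0.0738 CPM in the shallowest library by that interval. On the TPM scale, which also corrects for transcript length, the highest level of any of the 6 in any library was 0.913 TPM, for *Zfp352* in a female BC wt library. The highest TPM of the others was 0.489 for *Zscan4c*, 0.451 for *Zscan4d*, 0.417 for *Tcstv3*, 0.320 for *Zscan4f* and 0.309 for *Tcstv1*. By mean TPM, the 6 genes sat between percentile 30.3 and 36.4 of all genes. None of them reached the minimum of 1 TPM that the study applied, so they were tested here in fits over every gene with at least 1 fragment.

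The libraries fit their labels for *Kdm6a*, with some limits that touch the results. *Kdm6a* had 110–116 CPM in male BC wt, 111–113 in male CB wt and 148–149 in female BC wt, against 0.0971–30.8 in the BC clones and 0.0798–16.7 in the CB clones. The exonic clones keep the other exons of the gene. ES cell identity was present in every group, as all 13 pluripotency markers exceeded 1 TPM in each of them, while 10 fibroblast markers summed to 18.9–144 TPM. Over genes of middle abundance, the mean squared deviation between the male CB wt libraries was 1.42 times that of counting noise. It was 11.8 times in male BC wt and 6.96 times in female BC wt. The male CB wt libraries, which the paper describes as biological replicates, were kept as 2 samples. Their spread lay near counting noise, so p-values that use this pair may understate the spread between cultures. The BC libraries also held more genes with a 2-fold disagreement between the counts on the BL6 and on the pseudo-*cast* genome, 1.28% or more of genes with at least 20 fragments against 0.202–0.236% in the CB libraries. The effects of the cross and of how its libraries were mapped cannot be told apart.

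**Figure D1:**
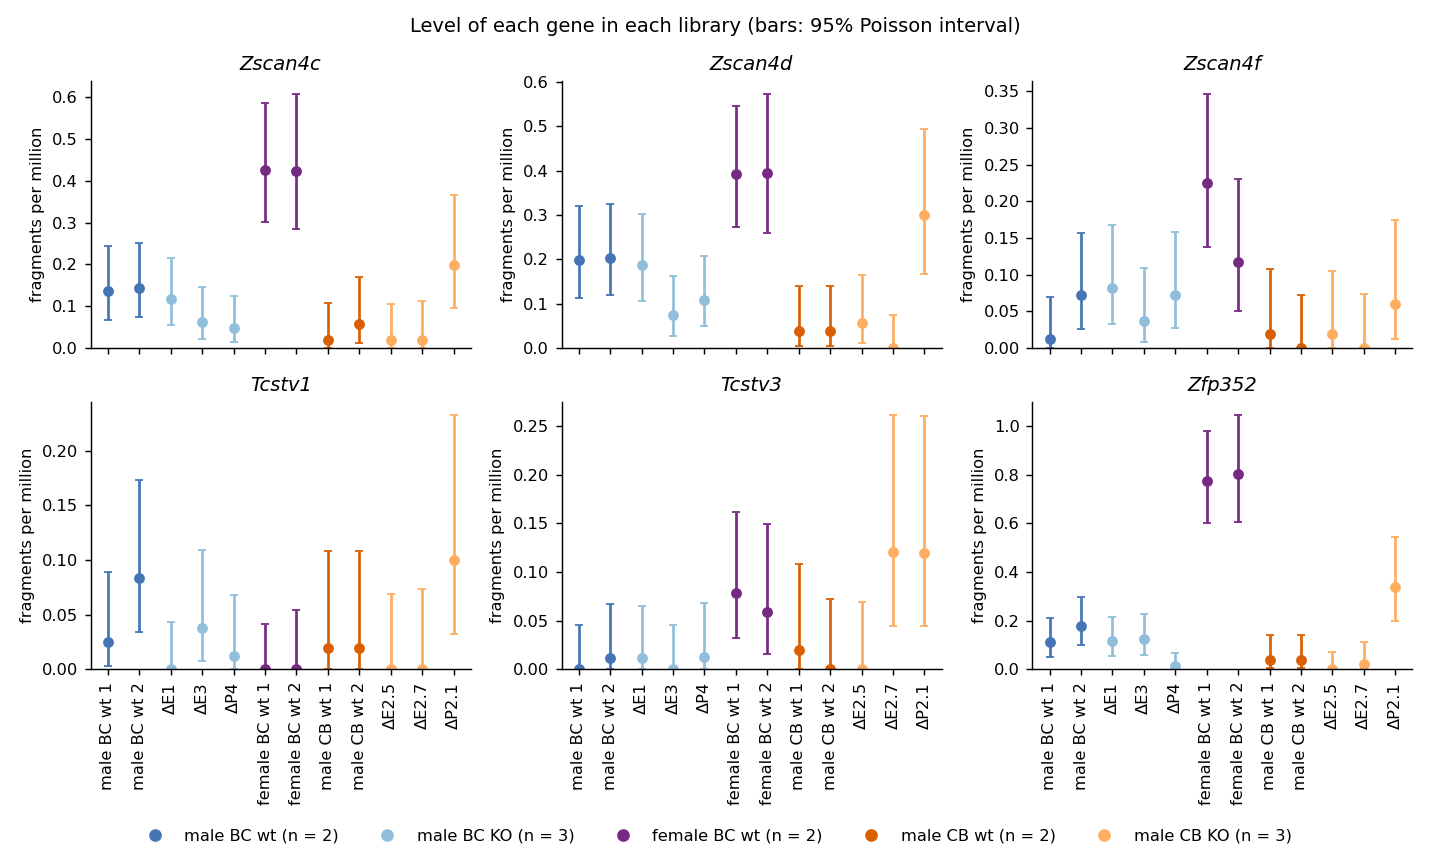
CPM of each of the 6 genes (y axis, one panel per gene with its own scale) in each of the 12 libraries (x axis), with 95% Poisson intervals as bars and colours for the 5 groups. The female BC wt libraries are highest for *Zscan4c*, *Zscan4d*, *Zscan4f* and *Zfp352*, and ΔP2.1 is the highest CB library for 5 of the 6 genes, with *Tcstv3* in ΔP2.1 and ΔE2.7 at 6 fragments each.

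Summed over the 6 genes, the level ran over more than an order of magnitude. Male BC wt libraries had 39 and 58 fragments, or 0.482 and 0.695 CPM. Clone ΔE1 had 44 fragments (0.513 CPM), ΔE3 had 27 (0.336) and ΔP4 had 22 (0.267). Female BC wt libraries had 169 and 123 fragments (1.90 and 1.80 CPM), above every male library. In CB, both wt libraries had 8 fragments (0.155 and 0.156 CPM), ΔE2.5 had 5 (0.0936) and ΔE2.7 had 8 (0.160). Clone ΔP2.1 stood apart from the other CB libraries with 56 fragments, or 1.12 CPM (95% Poisson interval 0.844–1.45). By group mean, the order was female BC wt at 1.85 ± 0.0712 (SD, n = 2), male BC wt at 0.588 ± 0.150 (SD, n = 2), male CB KO at 0.457 ± 0.572 (SD, n = 3), male BC KO at 0.372 ± 0.127 (SD, n = 3) and male CB wt at 0.156 ± 0.000157 (SD, n = 2). The small SD of male CB wt comes from equal counts of 8 fragments, each with a Poisson interval of 0.067–0.307 CPM, and does not measure their precision. Only the female libraries separated from all others, since the BC clones overlapped male BC wt and the CB clones ranged from below male CB wt to above male BC wt.

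**Figure D2:**
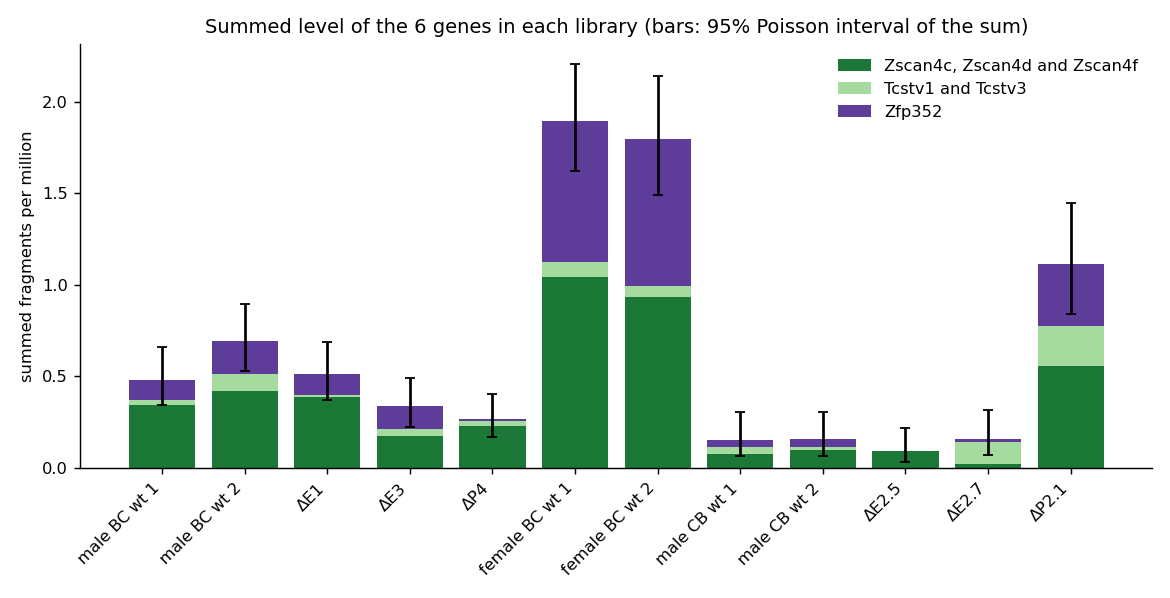
Summed CPM of the 6 genes (y axis) in each library (x axis), stacked by family, with a 95% Poisson interval on each sum. The female BC wt libraries reach 1.90 and 1.80 and ΔP2.1 reaches 1.12, while the other CB libraries stay between 0.0936 and 0.160.

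Female BC wt cells were compared with male BC wt cells. With 2 libraries of each, the effects of sex and of the cell line or its culture cannot be told apart. *Zfp352* was counted 69 and 55 times in the female libraries against 9 and 15 times in the male ones, and it was higher in females by 2.33 on the log2 scale (standard error 0.30, adjusted p = 5.33e-06 by Benjamini-Hochberg over 19740 genes, quasi-likelihood test of edgeR). *Zscan4c* had 38 and 29 fragments against 11 and 12, a log2 difference of 1.51 (standard error 0.34, edgeR adjusted p = 0.00111). *Zscan4d* had 35 and 27 fragments against 16 and 17, a log2 fold change of 0.88 (standard error 0.32, edgeR adjusted p = 0.0246). The female libraries did not overlap the male ones for these 3 genes, nor for *Zscan4f*, *Tcstv3* and, in the lower direction, *Tcstv1*. The share of all genes without overlap between these groups was not counted. In the female libraries taken singly, 47.1% and 47.4% of all genes were above both male libraries, and 40.7% and 40.8% were below both. Lack of overlap is therefore not read as particular to the 6 genes. The size for *Zfp352* depended on the column, as its log2 difference was 1.33 (edgeR adjusted p = 6.31e-05) in the counts on the *cast* genome. *Zscan4f* had 20 and 8 fragments against 1 and 6 (log2 fold change 1.93, standard error 0.68, edgeR adjusted p = 0.0221), and *Tcstv3* had 7 and 4 against 0 and 1 (log2 fold change 3.14, standard error 1.21, edgeR adjusted p = 0.0340). The latter pair rests on few fragments.

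*Tcstv1* went the other way in the counts on either genome, with 0 fragments in both female libraries and 2 and 7 in the male ones (edgeR adjusted p = 0.0254). The ratio of female to male counts was 0 in this column, and its 95% interval from counting error alone reached up to 0.529. The counts on the BL6 genome alone gave no call, as *Tcstv1* then had 8 and 3 fragments in females against 6 and 12 in males (log2 fold change -0.73, edgeR adjusted p = 0.335). The counts on the *cast* genome gave 6 and 1 against 3 and 8 (log2 fold change -0.68, edgeR adjusted p = 0.502), so the call was lost in both while the direction stayed. As a family, *Tcstv1* and *Tcstv3* had 11 female and 10 male fragments, a ratio of 1.15 with an interval of 0.443–3.01 from counting error alone.

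Counted together, 5 of the 6 genes passed the test as higher and 1 as lower in female BC wt, while the same fit called 39.9% of all genes tested, 21.6% as higher and 18.3% as lower. Each female library had 5 of the 6 above both male ones and 1 below, where 47.1% and 47.4% of all genes were above and 40.7% and 40.8% below. DESeq2 called 2 of the 6, *Zfp352* and *Zscan4c*, and 35.4% of all genes, and no call held in edgeR when all 12 libraries shared the estimate of the spread (adjusted p from 0.0585 to 0.383). Leaving out any single library of the 4 in turn left 2 to 4 calls, with *Zfp352* and *Zscan4c* called each time and *Zscan4d* in none. The summed level was 3.14-fold higher in female BC wt, with a counting interval of 2.49–3.99. Pluripotency markers moved with it, as 7 of 13 were called higher and none lower, with a summed level of 11140–11373 TPM in females against 7139–7518 TPM in males. Of 10 fibroblast markers, 3 were higher and 7 lower, and their sum of 86.8–87.5 TPM in females against 41.1–43.7 TPM in males was carried by *Thy1* (67.4 and 66.2 TPM in females). Of 7 primitive endoderm markers, 4 were higher and 2 lower. The part of these markers in the difference was not tested.

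**Figure D3:**
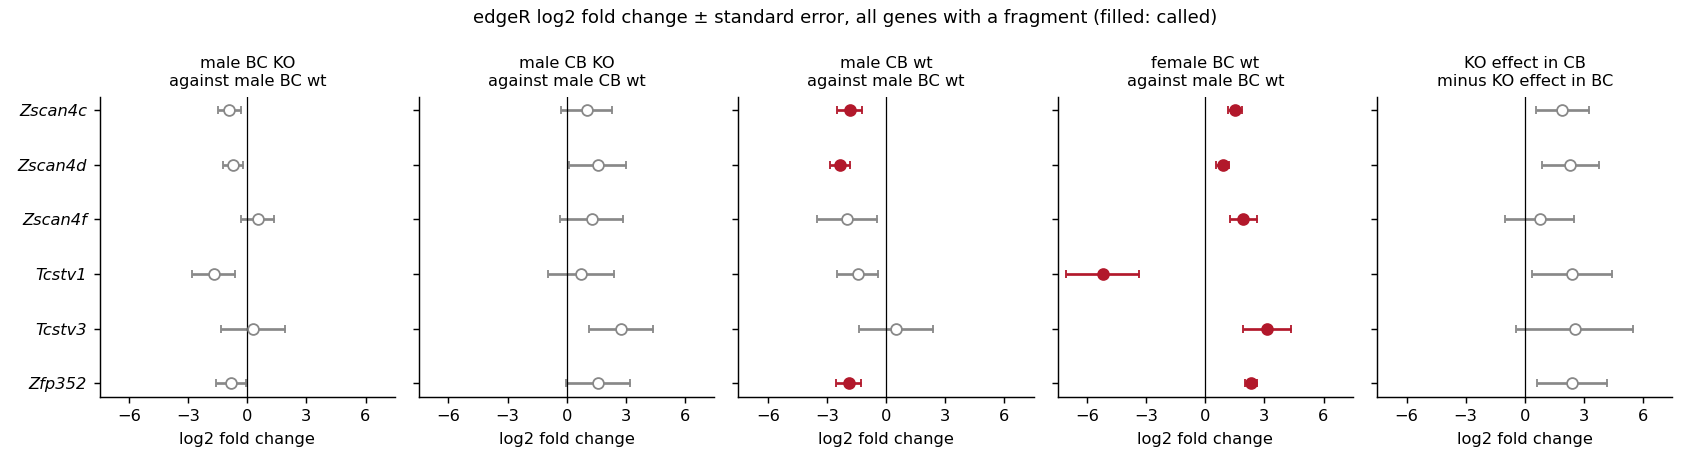
Log2 fold change of each gene (x axis) in the 5 comparisons (panels), with the standard error of the edgeR fit as bars and filled red points for called genes, those with an edgeR FDR below 0.05 that differed 1.5-fold or more. All 6 genes are called between female and male BC wt and 3 between the crosses, and none in the KO comparisons. The value of *Tcstv1* in the female panel comes from libraries without a fragment and has no fixed size.

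Unedited male cells of the crosses were compared next. *Zscan4d* had 2 fragments in each male CB wt library against 16 and 17 in male BC wt, a log2 difference of -2.35 (standard error 0.50, edgeR adjusted p = 0.00846 over 19580 genes). *Zfp352* had 2 and 2 against 9 and 15 (log2 fold change -1.90, standard error 0.62, edgeR adjusted p = 0.0422), and *Zscan4c* had 1 and 3 against 11 and 12 (log2 fold change -1.84, standard error 0.63, edgeR adjusted p = 0.0485). CB libraries lay below BC libraries without overlap for these 3 genes, also after scaling to depth. The same held for *Tcstv1*, with 0.0194 and 0.0195 CPM in male CB wt against 0.0247 and 0.0838 in male BC wt. For *Tcstv1* the Poisson intervals overlapped, at 0.000492–0.108 CPM in the first male CB wt library and 0.00299–0.0893 in the first male BC wt library. How many of all genes did not overlap between these groups was not counted, so the lack of overlap is not read as particular to these genes. *Zscan4f* with 1 and 0 against 1 and 6 fragments, *Tcstv1* with 1 and 1 against 2 and 7, and *Tcstv3* with 1 and 0 against 0 and 1 did not pass the test.

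Thus 3 of the 6 genes were called as lower in male CB wt, with 29.8% of all genes called in that comparison and 13% called as lower. DESeq2 called none of the 6 (1 at an unadjusted p under 0.05) and 26.5% of all genes, nor did edgeR call any with all 12 libraries in the fit (adjusted p from 0.121 to 0.876). Here DESeq2 returned an adjusted p for 17302 of 19580 genes. Leaving out any single library of the 4 left 1 or 2 calls, with *Zscan4d* called each time. The summed level in male CB wt was 0.264 of that in male BC wt (counting interval 0.145–0.450). It was 0.120 of the male BC wt level in the counts on the *cast* genome, where *Zscan4f* had 1 and 0 fragments against 47 and 62. Fibroblast markers also differed, with 6 of 10 higher and 1 lower in male CB wt, as did 4 of 7 primitive endoderm markers, all higher, and 6 of 13 pluripotency markers, all lower, and their part in the difference was not tested.

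Clones of the BC cross were then set against male BC wt to ask whether loss of *Kdm6a* changes these genes. *Zscan4c* had 10, 5 and 4 fragments in ΔE1, ΔE3 and ΔP4 against 11 and 12 in wt, and each clone was below both wt libraries once scaled to depth. Its log2 fold change came to -0.91 (standard error 0.57, edgeR adjusted p = 0.651 over 19885 genes). *Zscan4d* had 16, 6 and 9 fragments against 16 and 17 (log2 fold change -0.74, standard error 0.52, edgeR adjusted p = 0.690). *Zscan4f* had 7, 3 and 6 against 1 and 6, with a log2 fold change of 0.53 (standard error 0.83, edgeR adjusted p = 0.848) and clones within or just above the range of the wt libraries. *Zfp352* had 10 fragments in ΔE1 and in ΔE3 but 1 in ΔP4, against 9 and 15 in wt, and its log2 fold change of -0.82 had a standard error of 0.75 (edgeR adjusted p = 0.742). *Tcstv1* had 0, 3 and 1 fragments against 2 and 7, and *Tcstv3* 1, 0 and 1 against 0 and 1.

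No gene of the 6 passed the edgeR test in BC, and 0 had an unadjusted p under 0.05, in a fit that called 0.0302% of all genes. DESeq2 called none either and returned no adjusted p for them, while it called 1.67% of all genes. The summed level of the 3 clones was 0.634 of wt with a counting interval of 0.472–0.852, by clone 0.870 (0.595–1.25) in ΔE1, 0.570 (0.357–0.880) in ΔE3 and 0.452 (0.271–0.725) in ΔP4. These intervals cover counting error only, and the wt libraries themselves lay at 0.482 and 0.695 CPM. Against both wt libraries on the TPM scale, ΔE1 had 1 of the 6 genes above and 3 below, where 42.5% of all genes were above and 35% below. ΔE3 had 0 above and 2 below (42.4% and 38.4% of all genes), and ΔP4 had 2 above and 4 below (52.4% and 28.3%). The fibroblast list was lower in the same clones, at 18.9–32.3 TPM against 41.1–43.7 TPM in wt, with 0 of 10 markers called by edgeR and *Col1a2* and *Thy1* called lower by DESeq2. Of 13 pluripotency markers, edgeR called 0 and DESeq2 called *Nanog* and *Klf4* higher, and 11 were above both wt libraries in ΔE1 and in ΔE3 and 9 in ΔP4. The part of these markers was not tested.

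In the CB cross, the clones did not move together. *Zscan4d* had 3, 0 and 15 fragments in ΔE2.5, ΔE2.7 and ΔP2.1 against 2 and 2 in wt, *Zscan4c* had 1, 1 and 10 against 1 and 3, and *Zscan4f* had 1, 0 and 3 against 1 and 0. *Zfp352*, with 0, 1 and 17 fragments against 2 and 2, showed the same split, and so did *Tcstv1* with 0, 0 and 5 against 1 and 1. Only the promoter clone ΔP2.1 was above wt for these 5 genes beyond a single fragment. *Tcstv3* differed from them, with 0, 6 and 6 fragments against 1 and 0, so that it made up 6 of the 8 fragments of ΔE2.7. Log2 fold changes over the 3 clones ran from 0.72 (standard error 1.67) for *Tcstv1* to 2.77 (standard error 1.62) for *Tcstv3*, with edgeR adjusted p from 0.453 to 0.851 over 19501 genes.

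Again no gene of the 6 was called in edgeR, 0 had an unadjusted p under 0.05, and the fit called 0% of all genes (0 of 19501, with 3102 at an unadjusted p under 0.05). DESeq2 called none of the 6 and 2.75% of all genes. It returned an adjusted p for only 13449 of the 19501 genes, and a gene without one could not be called. The absence of a DESeq2 call is therefore no second test of these scarce genes. Without ΔP2.1, the log2 fold change of the 2 exonic clones turned to -3.16 for *Tcstv1*, -1.74 for *Zfp352*, -0.89 for *Zscan4c* and -0.37 for *Zscan4d*, so for these 4 genes the direction in CB rested on that clone. The value for *Tcstv1* comes from exonic clones without a fragment and has no fixed size, with a counting interval of the ratio from 0 to 5.30. *Zfp352* had 1 fragment in the exonic clones against 4 in wt, a ratio of 0.249 (0.00505–2.51). The intervals were 0.0450–3.47 for *Zscan4c* and 0.109–4.41 for *Zscan4d*. The log2 fold change without ΔP2.1 stayed positive at 2.35 for *Tcstv3* and was 0.02 (standard error 1.81) for *Zscan4f*. In sum, the level in ΔP2.1 was 7.18-fold that of male CB wt (counting interval 4.06–13.4), while ΔE2.5 and ΔE2.7 together were at 0.808 of it (0.358–1.79). ΔP2.1 exceeded the exonic clones 8.88-fold (4.80–17.7) and, in these counts, male BC wt 1.89-fold (1.34–2.66). These ratios compare single libraries, and no test over replicates stands behind them.

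By family, ΔP2.1 had the highest count of the CB libraries. *Zscan4c*, *Zscan4d* and *Zscan4f* together had 28 fragments in ΔP2.1 against 9 over both wt libraries, a ratio of 6.38 (counting interval 2.93–15.4). *Tcstv1* and *Tcstv3* had 11 against 3, a ratio of 7.52 (1.99–42.0), while ΔE2.7 had 6, a ratio of 4.12 (0.879–25.4), all from *Tcstv3*. *Zfp352* had 17 in ΔP2.1 against 4, a ratio of 8.72 (2.84–35.6). All 6 genes were above both male CB wt libraries in ΔP2.1, where 36.6% of all genes with a fragment were. In ΔE2.5, 1 of the 6 was above and 3 below (36.5% and 49.2% of all genes), and in ΔE2.7, 1 was above and 4 below (35.1% and 50.6%). Fibroblast markers summed to 144 TPM in ΔP2.1 against 94.2–100 TPM in male CB wt, with *Col1a1* at 102 TPM against 56.3 and 52.1 TPM, 3 of the 10 markers above both wt libraries, 5 below both and none at 0. Primitive endoderm markers summed to 32.9 TPM against 53.8–54.7 TPM, and pluripotency markers to 6103 TPM against 5108–5203 TPM. The part of these markers in the level of the 6 genes was not tested.

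The KO effect was also compared between the crosses in a fit of the 10 male libraries. Its difference, CB minus BC, was positive for all 6 genes, from 0.76 (standard error 1.76) for *Zscan4f* to 2.54 (standard error 2.96) for *Tcstv3* on the log2 scale. With edgeR adjusted p from 0.517 to 0.932, none of the 6 was called (0 at an unadjusted p under 0.05), and the fit called 0.054% of all genes. DESeq2 called none of the 6 as well, and 2.89% of all genes, but it returned an adjusted p for only 14822 of 20365 genes. The promoter clones lay on opposite sides of their wt libraries, with ΔP4 the lowest BC clone at 0.267 CPM and ΔP2.1 the highest CB clone at 1.12, and this difference between 2 single libraries was not tested.

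**Figure D4:**
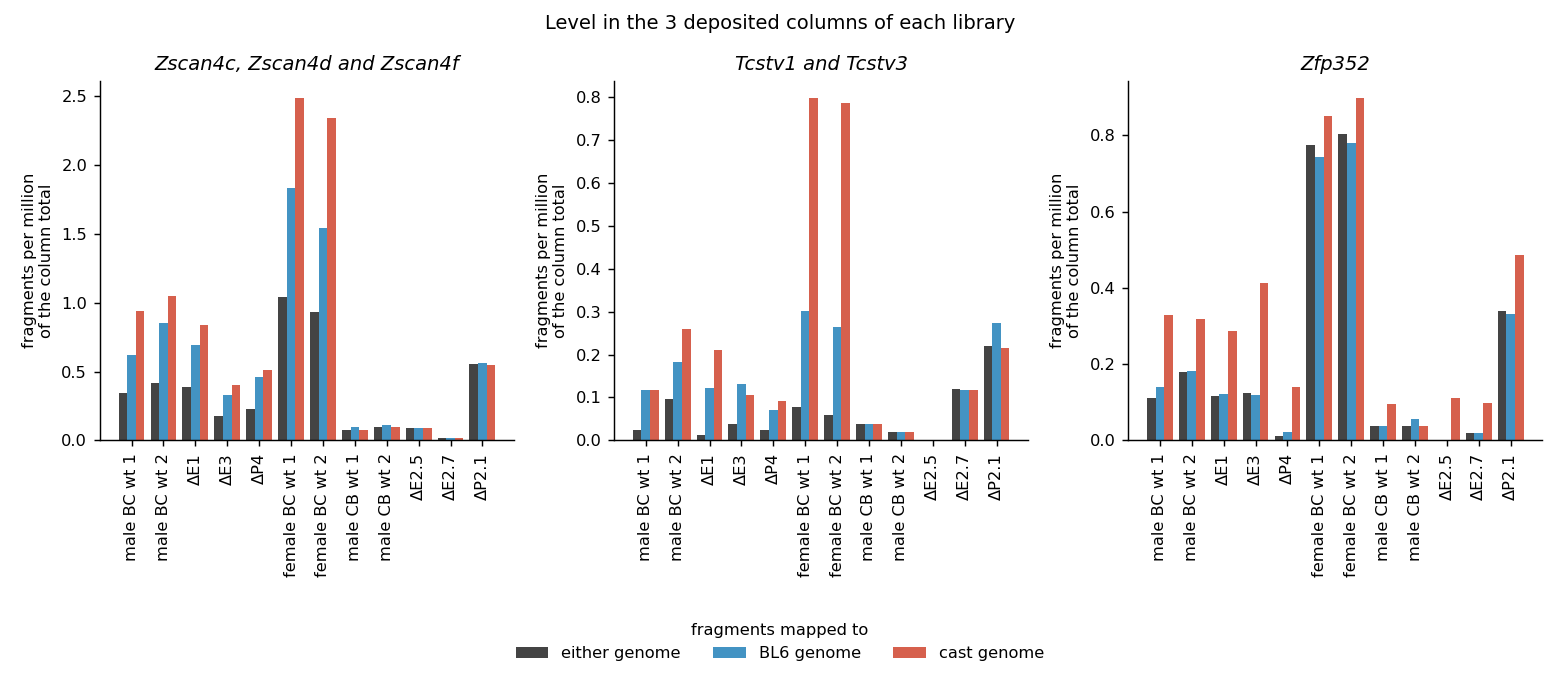
CPM within each column (y axis, fragments scaled by the column total) for the 3 families (panels) in each library (x axis), from the counts on either genome, on the BL6 genome and on the *cast* genome. In BC libraries the *Zscan4* and *Tcstv* bars of the genome columns rise above those of either genome, while the *Zscan4* bars of the CB libraries nearly coincide, and the order of female BC wt over male BC wt is the same in all 3 columns for *Zscan4* and *Zfp352*.

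The 3 deposited columns gave different levels for the paralogs in BC. *Zscan4f* had 1 and 6 fragments on either genome in male BC wt, the same 1 and 6 on the BL6 genome, but 47 and 62 on the *cast* genome. *Zscan4d* showed the reverse, with 37 and 48 fragments on the BL6 genome against 22 and 19 on the *cast* genome. *Tcstv3* in female BC wt had 7 and 4 fragments on either genome, 20 and 16 on BL6 and 69 and 56 on *cast*. For the *Zscan4* genes the columns nearly agreed in CB, as *Zscan4f* had 3 fragments in ΔP2.1 in every column and *Zscan4d* had 15, 16 and 15 on either genome, BL6 and *cast*. *Zfp352* was higher on *cast* there too, with 25 fragments in ΔP2.1 against 17 on either genome. In every column the female libraries had the highest sum of the 6 genes and ΔP2.1 the highest in CB, with the female libraries at 2.88 and 2.59 CPM on BL6 and 4.14 and 4.03 on *cast*, and ΔP2.1 at 1.17 and 1.25 against 0.171–0.190 and 0.152–0.209 in male CB wt. The place of ΔP2.1 against male BC wt did depend on the column, as male BC wt was at 0.883 and 1.22 CPM on BL6 and at 1.38 and 1.63 on *cast*.

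Few fragments held a SNP that names the parental allele. Over the 6 genes, the female BC wt libraries had 9 and 5 BL6-SNP fragments and 7 and 9 *cast*-SNP fragments, and ΔP2.1 had 16 and 4. *Zfp352* in females had 3 BL6-SNP and 6 *cast*-SNP fragments in the first library and 0 and 9 in the second. In ΔP2.1, *Zscan4d* had 6 BL6-SNP fragments and 1 *cast*-SNP fragment. At these counts no allele ratio was estimated.

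Of the neighbouring copies, *Zscan4a* had the same profile. It is annotated as an unprocessed pseudogene at the start of the cluster (minus strand, chr7:10794242-10799057) and had 20 and 22 fragments in male BC wt, 65 and 42 in female BC wt, 2 and 2 in male CB wt and 10 in ΔP2.1. *Zscan4b* had 4 and 10, then 4 and 5, then 0 and 0, and 7 in ΔP2.1, so it did not share the female level on either genome, although on the BL6 genome it had 22 and 29 female fragments against 10 and 17 male ones. *Dux*, the activator, had at most 3 fragments in any library on either genome, too few to compare. On the BL6 genome it had 13 and 5 fragments in male BC wt, 12 and 15 in female BC wt, 14, 7 and 2 in ΔE1, ΔE3 and ΔP4, and at most 3 in the CB libraries. Reads that these copies share with the 6 genes are left out by unique mapping, so the family counts cover part of the family's transcripts.

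Further genes of the 2-cell-like state were taken as a list of 61, of which 53 had a row. Between female and male BC wt, 23 of 43 tested were higher and 2 lower in edgeR, with a median log2 fold change of 1.34 against -0.02 over all genes tested, of which 21.6% were higher and 18.3% lower. DESeq2 called 17 of the list higher and 2 lower, with 35.4% of all genes called. The higher ones were *BB287469*, *BC147527*, *B020004J07Rik*, *Gm13119*, *Gm2016*, *Gm2022*, *Gm5039*, *Gm5662*, *Gm8300*, *Gm8994*, *Gm12794*, *Pramel6*, *Pramel7*, *Tdpoz3*, *Tdpoz4*, *Ubtfl1*, *Usp17lb*, *Usp17lc*, *Usp17le*, *Tmem92*, *Calcoco2*, *Lmx1a* and *Fgf1*, and the lower ones *Gm20767* and *Arap2*. *Pramel7*, a member of the PRAME family, rose by a log2 value of 2.89 (standard error 0.22, edgeR adjusted p = 1.36e-08), from 0.34 and 0.57 TPM to 3.74 and 3.33 TPM. *Usp17lc*, a deubiquitinase gene, rose by 2.03 (standard error 0.33, edgeR adjusted p = 5.36e-05). *Calcoco2*, an autophagy receptor and the most abundant gene of the list, rose by 0.64 (standard error 0.08, edgeR adjusted p = 4.42e-06), from 42.5 and 47.3 TPM to 72.5 and 73.0 TPM.

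In the clones, the list gave no calls in edgeR. In BC, 0 of 40 were called and the median log2 fold change was -0.43 against 0.02 over all genes, and in CB, 0 of 41 were called with a median of 0.76 against 0.02. DESeq2 called none in either cross. It returned an adjusted p for 14872 of 19885 genes in BC and for 13449 of 19501 in CB. Genes without one could not be called. By clone, 34 of 42 were above both wt libraries in ΔP2.1 and 5 below (36.6% and 48.4% of all genes). In ΔE2.5, 10 of 37 were above and 17 below (36.5% and 49.2% of all genes). In ΔE2.7, 9 of 37 were above and 18 below (35.1% and 50.6%). In BC, 18 of 40 were above and 12 below in ΔE1, near the shares of all genes (42.5% and 35%). In ΔE3, 9 of 40 were above and 22 below (42.4% and 38.4% of all genes), and in ΔP4, 6 of 39 were above and 24 below (52.4% and 28.3%). *Gm5039*, an eIF1A-like gene of the 2-cell embryo, was at 1.22 TPM in ΔP2.1 against 0.258 and 0.229 TPM in male CB wt, and *Gm2022*, also eIF1A-like, at 1.12 TPM against 0.244 and 0 TPM. The summed TPM of the list did not single out ΔP2.1, at 109 TPM against 98.4 and 101 TPM in wt, and *Calcoco2* alone had 48.3 TPM in ΔP2.1 and 44.8 and 46.8 TPM in wt. Between the unedited crosses, 3 of 40 were higher in male CB wt (*Gm8994*, *Arg2*, *Arap2*) and 10 lower, among them *Gm5039*, *Gm12794* and *Tmem92*, where 16.8% of all genes were higher and 13% lower. DESeq2 called 3 higher and 7 lower.

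Genes that act on the state were called in DESeq2 at most in the KO comparisons. None of 8 activators and none of 27 repressors was called in either cross in edgeR, while DESeq2 called the activator *Tbx3* higher in BC and the repressor *Ncl* higher in CB, and also *Zfp42* higher in BC among genes above 1 TPM. *Dppa4*, an activator, was at 136, 165 and 130 TPM in the BC clones against 152 and 158 TPM in wt, and at 146, 126 and 137 TPM in the CB clones against 125 and 122 TPM. *Trim28*, the corepressor of retroviral repeats, was at 2468, 2437 and 3114 TPM in the CB clones against 2279 and 2208 TPM in wt (log2 fold change 0.33, standard error 0.12, edgeR adjusted p = 0.286). *Nelfa*, an activator, in the CB clones had a log2 fold change of 0.37 (standard error 0.07, edgeR adjusted p = 0.166). In ΔP2.1, 6 of 8 activators and 19 of 27 repressors were above both male CB wt libraries, as were 36.6% of all genes.

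Between female and male BC wt, 5 of 8 activators and 8 of 27 repressors were called in edgeR, where 39.9% of all genes were. Among activators, *Tbx3* and *Spic* were higher and *Duxbl1*, *Dppa2* and *Smarca5* lower. *Tbx3*, a T-box factor of naive ES cells, rose by a log2 value of 4.37 (standard error 0.09, edgeR adjusted p = 3.87e-14), from 7.44 and 6.54 TPM to 151 TPM in both female libraries. *Dppa2* fell by 1.00 on the log2 scale (standard error 0.10, edgeR adjusted p = 3.53e-07). Of 27 repressors, *Zfp42* was higher and *Setdb1*, *Ehmt1*, *Smchd1*, *Pcgf6*, *Hdac1*, *Lin28a* and *Ncl* were lower, with *Ncl*, which encodes nucleolin, down by a log2 value of -1.06 (standard error 0.08, edgeR adjusted p = 9.2e-09). In male CB wt against male BC wt, *Tbx3* and *E2f6* were higher and *Smarca5*, *Cbx3*, *Zfp42* and *Ncl* lower.

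Genes with the most similar profile were sought among 14671 genes above 1 TPM in a library, by Pearson r of log2(TPM + 1) with the summed level of the 6 genes over the 12 libraries. The 10 nearest were *Gm5039* (r = 0.95), *AA465934* (0.95), *Gm4971* (0.94), *Gm2022* (0.93), *Fkbp6* (0.93), *Usp17lc* (0.92), *Hus1b* (0.92), *Trp73* (0.92), *4933404O12Rik* (0.92) and *Wdr20rt* (0.91). *Gm5039*, *Gm2022* and *Usp17lc* also stood in the list of 2-cell-like genes. *AA465934* had 12.9 and 8.39 TPM in male BC wt, 69.1 and 54.3 TPM in female BC wt, 5.52 and 5.25 TPM in male CB wt and 35.3 TPM in ΔP2.1. *Fkbp6*, which encodes a germ cell immunophilin, had 12.9 and 13.95 TPM in male BC wt, 55.7 and 57.1 TPM in females, 3.97 and 3.26 TPM in male CB wt and 13.9 TPM in ΔP2.1. The r values describe 12 libraries in which the female pair and ΔP2.1 hold the high end, and the ranking shared 7 of its 10 genes with one made at a pseudocount of 0.1.

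**Figure D5:**
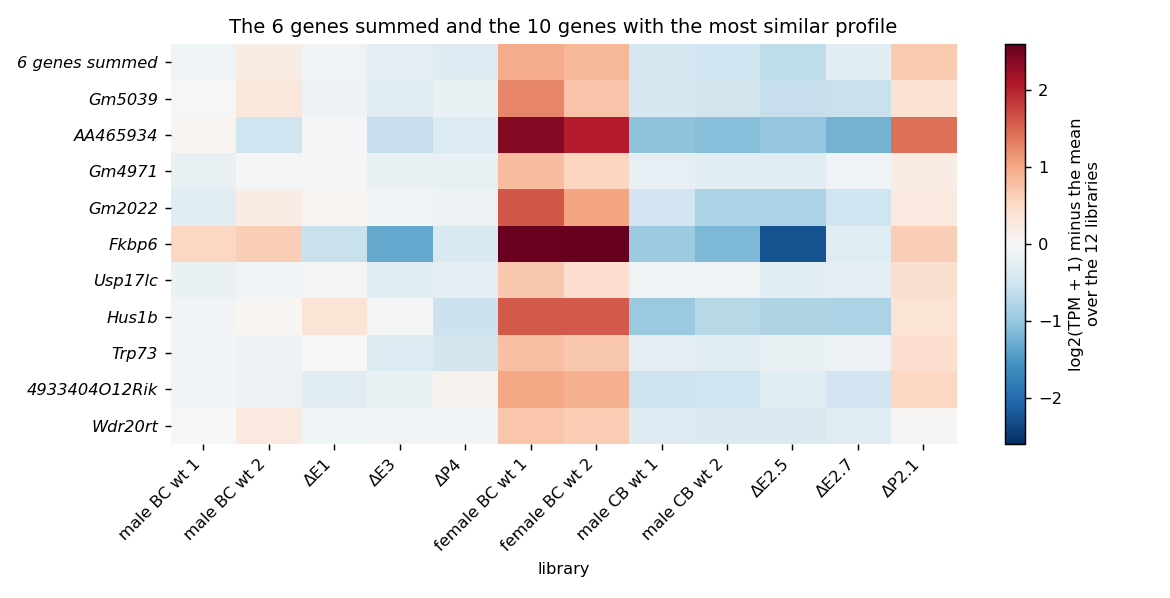
Log2(TPM + 1) minus the mean over the 12 libraries (colour) for the 6 genes summed and the 10 genes of most similar profile (rows) in each library (columns). The female BC wt libraries and ΔP2.1 are at or above the mean in every row, and *Fkbp6* and *AA465934* have the widest range.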

How the data were processed

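RNA from 12 cultures was sequenced as 75 bp single-end reads. Per the methods, the authors mapped reads with TopHat and Bowtie2 (2.2.5 for the latter) to mm10 and to a pseudo-*cast* genome, kept unique reads of MAPQ 30 or more, and deposited estimated counts of fragments per gene for each genome, for either genome and for SNP-bearing fragments. Use of strand in the counting is not given in the sources used here. Column totals per library ran from 49975599 to 89070402 fragments, and intervals cover counting error only.

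Counts in the column for either genome, which lay at or below both genome columns for nearly all genes, were scaled per library over all 12. TPM used GENCODE vM21 gene lengths for 23310 of 24346 genes and the median length of 2284 bp for the other 1036. Groups were compared in edgeR 4.0.16 (R 4.3.3, quasi-likelihood, TMM scaling), each fit holding the groups compared. A gene was called where its FDR was below 0.05 and it differed 1.5-fold or more, and DESeq2 1.42.0 was an alternative. DESeq2 returned no adjusted p for part of the genes in the fits without a minimum, and these could not be called by it. The planned minimum of 1 TPM in a library removed all 6 genes, so their tests come from the fit without a minimum. Other settings combined with no minimum were chosen after seeing the data. Ratios of summed counts carry exact conditional binomial intervals at 95%, and levels carry Poisson intervals. The scripts were tested on simulated data. Genes named outside the 6 were those called in a list, the most abundant of it and the 10 of most similar profile, and further genes with values were chosen after their values were seen. The 6 genes and all lists were chosen with earlier results of these data known. Alternatives covered scaling, the tool, the samples in the fit, the genome column, the replicate block and leaving out each library.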

Additional observations from a re-analysis of the deposited data

Results flagged for a closer look

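The promoter clones stood on opposite sides of their wt libraries in the summed level of the 6 genes. ΔP4 was at 0.452 of male BC wt (counting interval 0.271–0.725), and ΔP2.1 was at 7.18 times male CB wt (counting interval 4.06–13.4). Each clone is 1 library, and the difference between them was not tested.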

How the results depend on the processing

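The genes are scarce, so depth limits every value for them, and calls depended on the tool and on single libraries. For the 6 genes, calls between the unedited crosses numbered 3, but 0 with DESeq2 or with all 12 samples in the fit and 1 to 2 when a library was left out. Between the sexes they numbered 6, but 2 with DESeq2, 0 with all 12 samples and 2 to 4 when a library was left out. Over all genes above the minimum, calls in BC clones numbered 4, then 260 with DESeq2, 54 with all 12 samples and 1 to 4 with a library left out. In CB clones they numbered 0, then 501, 54 and 0 to 927, with 927 without ΔP2.1. For the difference between the crosses they numbered 9, then 554, 113 and 3 to 306 (306 without ΔP2.1, 88 without ΔP4), and 23 with ΔE1 and ΔE3 averaged. With a library left out, calls between the crosses ranged from 4621 to 4848 and between the sexes from 6123 to 6308.

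The summed level in male CB wt over male BC wt was 0.120 on the *cast* genome against 0.264, and 0.224 to 0.323 with a library left out. Female over male ranged from 2.67 to 3.84, BC clones over wt from 0.510 to 0.776, and CB clones over wt from 0.808 to 4.11, reversed without ΔP2.1. Log2 fold changes of single genes also turned. In BC clones, *Zscan4f* was at -0.81 on *cast* and -0.21 to 2.19 with a library left out, and *Tcstv3* at -0.62 on BL6, -0.35 on *cast*, -0.060 with ΔE1 and ΔE3 averaged and -0.54 to 2.64. In CB clones, the ranges with a library left out were -0.89 to 1.93 for *Zscan4c*, -0.37 to 2.16 for *Zscan4d*, -3.16 to 1.29 for *Tcstv1* and -1.74 to 2.18 for *Zfp352*. The low end for *Tcstv1* comes from clones without a fragment and has no fixed size. Between the unedited crosses, *Tcstv3* was at -2.14 on BL6, -3.58 on *cast* and -2.18 to 2.51. For the difference between crosses, the ranges were -0.022 to 2.86 for *Zscan4c*, -0.87 to 3.41 for *Zscan4f*, -1.84 to 3.61 for *Tcstv1* and -0.99 to 3.01 for *Zfp352*. Beyond what leaving out a library or using fewer fragments sets by construction, the cause was not tested.

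Replicate numbers are shared between wt groups, but the deviations of same-numbered libraries correlated at 0.098 (male BC and CB) and 0.237 (male and female BC) over only 2 pairs, so they were not taken as pairs. With the replicate block, 4825 genes were called between the crosses, with 2 of the 6 (*Zscan4c* lost its call, edgeR adjusted p = 0.058), and 6283 between the sexes, with 6 of the 6.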

Other observations

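When the group mean was removed from each library before profiles were compared, the nearest genes changed. They were *4930486L24Rik* (r = 0.98), *Ntn3*, *Tmbim4*, *Synpo*, *Gdf6*, *Fbxw9*, *Cav1* (r = 0.97), *Robo2*, *Cemip* and *Krt20*, over 12 libraries and 14671 genes, and none of them stood among the 10 genes nearest by the undivided profile. *Cav1*, which encodes the coat protein of caveolae, was at 16.9 and 16.0 TPM in male CB wt, 37.5 TPM in ΔP2.1 and 1.88 and 5.37 TPM in the exonic CB clones. *Robo2*, a guidance receptor gene, was at 1.34 and 1.22 TPM in male CB wt, 2.91 TPM in ΔP2.1 and 0.0934 and 0.428 TPM in the exonic CB clones. The fibroblast marker *Col1a1* had the same order, with 56.3 and 52.1 TPM in male CB wt, 102 TPM in ΔP2.1 and 7.54 and 19.9 TPM in the exonic CB clones. The summed fibroblast list also had this order, at 100 and 94.2 TPM in male CB wt, 144 TPM in ΔP2.1 and 33.9 and 54.1 TPM in ΔE2.5 and ΔE2.7. Its single markers were split in ΔP2.1, where 3 of 10 were above both male CB wt libraries and 5 below both. In ΔE2.5 and ΔE2.7, 8 and 7 of the 10 were below both. The part of fibroblasts in these profiles was not tested. The within-group profile rests mainly on the CB clones, and *Cav1* and *Robo2* were singled out after their values were seen.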
